A study of Homo sapiens with 25 samples.

Results

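The 5 transcription factor genes GATA2, GATA3, GATA4, GATA5 and GATA6 were followed through 4 stages of human endoderm differentiation by chromatin immunoprecipitation with sequencing (ChIP-seq). They are 5 of 20037 protein-coding genes in the annotation, taken by name, with earlier results of these data known. Cells of the H1 line, which is an established line of human embryonic stem cells, were profiled undifferentiated (hESC) and after directed differentiation at 3 successive stages, with no genetic change given in the labels. These stages were definitive endoderm, written hDE; anterior foregut endoderm, written hAFE; and, last, the pharyngeal foregut, written hPFE. The marks were H3K27ac with 2 libraries at each stage, H3K27me3 with 2 except for 1 at hAFE, and H3K4me2 with 2 at hESC and hDE and 1 at hAFE and hPFE, 21 libraries with a peak list in all. All cells come from 1 line, and no label tells whether the replicates were differentiated separately. The hESC libraries of H3K27ac and H3K27me3 are re-analysed from an earlier deposit per their titles, so for these 2 marks batch and stage cannot be told apart in any comparison with hESC.

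GATA factors are zinc finger proteins that bind the DNA sequence GATA. GATA2 and GATA3 are best known from blood and lymphoid cells, and GATA3 is also needed for the parathyroid, which arises from the pharyngeal endoderm. GATA4, GATA5 and GATA6 act in endoderm and heart, and GATA4 and GATA6 are among the early regulators of definitive endoderm. H3K27ac marks active promoters and enhancers, H3K27me3 is deposited by Polycomb repressive complexes at silent developmental genes, and H3K4me2 lies at promoters and enhancers both active and poised. A promoter with H3K27me3 together with H3K4 methylation is called bivalent, a state that is common at developmental regulators in embryonic stem cells.

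The annotated start windows of GATA6 and GATA2 are shown because the marks at GATA6 changed most clearly between stages while H3K27me3 lay over GATA2 in every library. GATA2 has 2 annotated start windows, and the outer one is shown. Each line gives the 250 bases before the start, 5′ to 3′, from RefSeq (GRCh38.p14): GATA6 at chr18:22169339-22169588 on the plus strand and GATA2 at chr3:128493202-128493451 on the minus strand. Capitals in GATA6 mark the 33 bases under an H3K27ac peak in both hDE libraries, and capitals in GATA2 mark the 155 bases under an H3K27me3 peak in all 7 libraries of that mark.
GATA6: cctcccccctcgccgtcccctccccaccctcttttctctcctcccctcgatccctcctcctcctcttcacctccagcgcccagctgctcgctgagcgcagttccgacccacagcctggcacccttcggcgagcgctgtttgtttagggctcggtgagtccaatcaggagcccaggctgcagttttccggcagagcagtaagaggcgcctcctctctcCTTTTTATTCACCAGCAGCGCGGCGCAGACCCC
GATA2: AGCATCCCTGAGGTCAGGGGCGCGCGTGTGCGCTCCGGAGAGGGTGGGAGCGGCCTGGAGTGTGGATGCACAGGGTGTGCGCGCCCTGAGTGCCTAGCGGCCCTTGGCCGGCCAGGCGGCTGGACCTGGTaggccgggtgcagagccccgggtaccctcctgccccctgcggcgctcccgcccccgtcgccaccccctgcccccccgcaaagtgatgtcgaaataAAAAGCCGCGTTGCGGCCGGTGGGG

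The GATA6 window holds 16 CG dinucleotides, the outer GATA2 window 24 and the inner one 18, against a median of 11 over 35116 RefSeq windows of the same length. None of these 3 windows, nor any of the 6 windows of GATA3, contains the GATA hexamers AGATAA or TGATAA on either strand, which 14.6% of all windows hold. No H3K27me3 peak of any library reached into the GATA6 window, whereas 157 to 250 bases of the outer GATA2 window lay under H3K27me3 in every library of that mark. H3K4me2 covered 181 and 250 bases of the GATA6 window in hESC, 0 and 0 in hDE, 226 in hAFE and 125 in hPFE. It covered 0 bases of the outer GATA2 window in all 6 libraries. The inner window, chr3:128488531-128488780, had 86 and 250 bases under H3K4me2 in hESC, 31 and 0 in hDE, 0 in hAFE and 250 in hPFE.

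The 21 lists held 1854 peaks in the 5 genes and the 100 kb on either side, 130 of them within 1 kb of an annotated gene end, 671 elsewhere in a gene body and 1053 in the flanks. A gene was called marked at a stage when every library had a peak within 1 kb of either gene end, unmarked when none had, and mixed otherwise. Such a call rests on 1 or 2 libraries and has no p, because 2 libraries against 2 cannot give less than p = 0.333 in an exact permutation test. The fold enrichment of a peak is the authors' own value within its list and is given only to describe the peak, never to compare lists. A share of cells carrying a mark and its density per cell cannot be told apart in these bulk samples.

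Markers of the stages were read at the gene ends in the same way. H3K27ac marked all 4 hESC markers in hESC and 2 or 3 of them at the later stages. Of all genes it marked 42.9% in hESC, and at the later stages 54.0% (hDE), 34.2% (hAFE) and 50.2% (hPFE). It marked all 5 hDE markers (SOX17, CXCR4, CER1, EOMES, GSC) in hDE and none at another stage. Single libraries of later stages had peaks at CXCR4 (6.31-fold in hAFE replicate 1, 2.62-fold in hPFE replicate 1) and CER1 (4.99-fold in hPFE replicate 2). Of 6 foregut markers H3K27ac marked FOXA2, SOX2 and ISL1 in hAFE, and these and SHH in hPFE. FOXA2 was also marked in hDE and SOX2 in hESC, so only ISL1 and SHH were marked at foregut stages alone. SHH had a 2.61-fold peak in hDE replicate 2. PAX9 and TBX1, which are defining genes of the pharyngeal endoderm, were not marked at any stage. PAX9 had a 7.06-fold H3K27ac peak in hPFE replicate 1 alone and was called lost for H3K27me3 in hPFE against hAFE, and TBX1 had no H3K27ac peak in any library. No neural, trophectoderm or surface ectoderm marker was marked by H3K27ac at any stage, though KRT7 had peaks in single libraries of hDE and hPFE. The only mesoderm or heart marker so marked was NKX2-5 in hPFE, and MESP1 had peaks in single libraries of hESC and hPFE. The only blood or endothelium marker so marked was KDR in hESC and hDE. The H3K27ac lists of hAFE were the shortest, with 24831 and 42049 peaks against 68276 to 111237 in the other 6 libraries.

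GATA6 and GATA4 were the 2 genes of the family that gained H3K27ac at a gene end in hDE against hESC. They were also the 2 that lost H3K27me3 there, and in hAFE against hDE both calls turned round: H3K27ac was lost and H3K27me3 returned. GATA2, GATA3 and GATA5 kept H3K27me3 at a gene end in all 7 libraries and were never called marked by H3K27ac. H3K27me3 thus marked 3 of the 5 members at hDE and all 5 at each other stage. The share of all genes so marked was 13.4% at hDE, beside 19.2% at hESC, 15.5% at hAFE and 12.7% at hPFE.

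At the GATA6 start, H3K27ac formed a pair of broad peaks in hDE. In replicate 1 they ran over chr18:22165726-22169310 and chr18:22169551-22171814, with fold enrichments of 15.1 and 17.5, and in replicate 2 over 22165757-22169331 and 22169556-22171847, with 18.2 and 18.4. The gap between them ended just before the annotated start at 22169589, within the sequence shown above. The upstream peak spans GATA6-AS1, a long noncoding RNA gene at 22166898-22168968 whose own end is 621 bp from GATA6. No H3K27ac peak lay at either end of GATA6 in the hESC or hAFE libraries, and in hPFE replicate 1 had a peak of 4.72-fold at 22169615-22170061 where replicate 2 had none.

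H3K27me3 occupied much of the same ground in hESC. In hESC the 2 libraries had peaks of 15.8- and 23.2-fold at the GATA6 start, upstream blocks ending 747 and 680 bp before it and downstream blocks starting 149 and 122 bp after it. Neither hDE library had an H3K27me3 peak at a gene end or anywhere in the GATA6 body. In the single hAFE library the strongest peak that returned was 6.89-fold, at 22168316-22168903. The strongest peaks of the 2 hPFE libraries were 2.93- and 4.69-fold, at 22168499-22168826 and 22168328-22168900. These peaks were 328 to 588 bp long, lay within GATA6-AS1 and ended 686 to 763 bp before the GATA6 start.

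GATA4 showed the same pair of calls with one difference inside the gene. Its lower-coordinate end carried H3K27ac of 9.35- and 7.47-fold in hDE, over chr8:11676347-11677910 and chr8:11676164-11677927, and no H3K27ac peak at either end in the other 6 libraries. H3K27me3 at that end was 10.7- and 20.4-fold in hESC, absent from both hDE libraries, 6.63-fold in hAFE and 5.89- and 8.43-fold in hPFE. In hESC these were peaks of over 17 kb that ran into the gene (11675553-11692744 and 11675404-11692672).

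**Figure D1:**
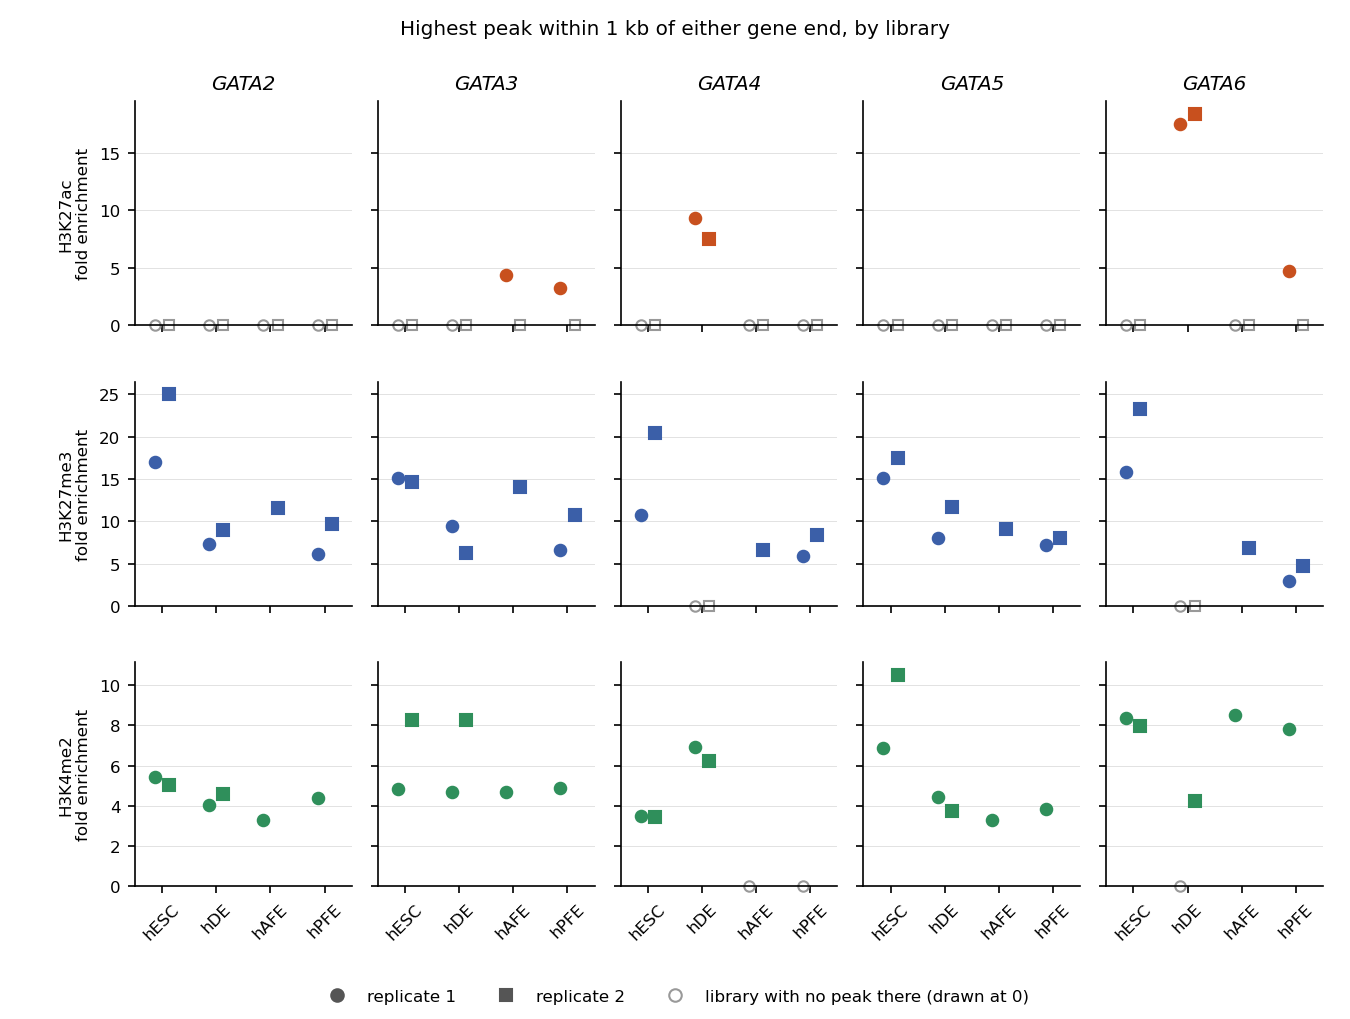
Fold enrichment of the strongest peak within 1 kb of either end of each gene (vertical axis, the authors' value within each list) by stage, for H3K27ac (top), H3K27me3 (middle) and H3K4me2 (bottom). Circles are replicate 1, squares replicate 2, and open symbols at 0 are libraries with no peak there. H3K27ac is filled in both replicates for GATA4 and GATA6 in hDE alone, where both H3K27me3 symbols of these 2 genes are open.

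Against the whole annotation, 2 of the 5 genes gained H3K27ac in hDE against hESC, where 16.1% of the 8354 genes that could gain it did. Likewise 2 of 5 lost H3K27me3 in hDE against hESC, beside 26.0% of 3288 genes. The opposite calls in hDE against hESC had no member that could make them, beside 2.82% of genes for H3K27ac lost and 0.911% for H3K27me3 gained. In hAFE against hDE both genes that could lose H3K27ac lost it, beside 16.9% of 8045 genes. Both that could gain H3K27me3 in hAFE against hDE gained it, beside 2.74% of 15847 genes. None of 2 gained H3K27ac in hAFE against hDE (1.20% of all genes), and none of 3 lost H3K27me3 (15.3%). With all lists of a mark reduced to the same number of peaks, the same 2 genes were called in each of these 4 comparisons. The return of H3K27me3 in hAFE rests on 1 library, and both calls of GATA4 on H3K27me3 were lost with windows of 2.5 kb, because hDE replicate 2 had an H3K27me3 peak 2023 bp inside the gene.

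Between hPFE and hAFE no gene of the family was called gained or lost for any mark. Over all genes in that comparison, H3K27ac was gained by 8.96% and lost by 0.551%, H3K27me3 was gained by 1.93% and lost by 18.2%, and H3K4me2 was gained by 11.7% and lost by 5.10%. In hPFE against hESC the family had no H3K27ac or H3K27me3 call either. Of all genes there, 13.1% gained H3K27ac, 3.98% lost it, 1.67% gained H3K27me3 and 36.6% lost it. In both comparisons no member could lose H3K27ac or gain H3K27me3, so the lack of these calls was fixed beforehand. Only 3 members could gain H3K27ac, and all 5 could lose H3K27me3. In hPFE against hAFE, 1 could gain H3K4me2 and 4 could lose it. Leaving out hPFE replicate 2 makes GATA6 a gain against hAFE, and GATA3 and GATA6 gains against hESC, since the H3K27ac peaks of both genes in hPFE come from replicate 1 alone.

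H3K4me2 was the most even of the 3 marks at the gene ends, and the exceptions were again GATA4 and GATA6. All 5 genes were marked in hESC, as were 72.3% of all genes, and none was called in hDE against hESC (gained by 2.00% and lost by 2.94% of all genes). GATA4 had 3.49- and 3.47-fold peaks in hESC and 6.91- and 6.24-fold peaks in hDE, and no peak in the hAFE or the hPFE library. It was thus called lost in hAFE against hDE (1 of 4 genes that could be, beside 3.23% of all genes, with 8.11% gained). It was also called lost in hPFE against hESC (1 of 5, beside 6.18%, with 6.51% gained). No member could gain H3K4me2 in these comparisons or in hDE against hESC. GATA6 had 8.36- and 7.96-fold peaks in hESC, a 4.27-fold peak in hDE replicate 2 with none in replicate 1, 8.52-fold in the hAFE library and 7.84-fold in the hPFE library. H3K4me2 at GATA2, GATA3 and GATA5 was present in all 6 libraries. The losses of GATA4 rest on 1 library at hAFE and 1 at hPFE. With windows of 2.5 kb GATA4 was no longer called lost in hAFE, and with an overlap of 200 bp or peaks of −log10 p of 5 or more it was no longer called lost in hPFE against hESC.

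Over the gene bodies, the 2 marks on lysine 27 traded places at GATA6. H3K27ac peaks covered 50.4 and 47.4% of the GATA6 body in hDE, against 0% in both hESC libraries, and 0% in both hAFE libraries. In hPFE they covered 2.61% in replicate 1 and 0% in replicate 2. H3K27me3 peaks covered 31.7 and 32.7% in hESC, 0 and 0% in hDE, 21.5% in hAFE and 18.3 and 21.2% in hPFE. The widest hDE H3K27ac peaks at this gene (7376 and 7895 bp) started from 2.38 kb inside it, in the region chr18:22171969-22180545, and the widest hESC H3K27me3 peaks (8214 and 8640 bp) lay at 22172130-22180343 and 22171958-22180597. H3K4me2 over the body reached 41.1 and 29.8% in hDE, against 8.29 and 11.2% in hESC.

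In GATA4, both marks occupied the gene in hDE, side by side. H3K27ac covered 28.1 and 22.5% of its 83068 bp in hDE, against 0 and 0.252% in hESC, and H3K27me3 covered 21.4 and 23.5% in hDE, against 57.5 and 61.1% in hESC. In hDE replicate 1 the H3K27me3 peaks lay mainly from 11680019 to 11701774, and the broad H3K27ac blocks on either side of that stretch, at 11676347-11677910 and in the regions 11701877-11706430 and 11706475-11711557. Narrower H3K27ac peaks, up to 11683296-11683830, lay among the first H3K27me3 peaks of the stretch. The bases under both marks in hDE came to 2.12 kb over the whole locus when either library counted, and 0 kb when every library of both marks had to cover them. H3K27me3 then covered 39.3% of the body in hAFE and 54.1 and 54.8% in hPFE, with H3K27ac at 0 and 0.236% in hAFE and 0 and 0% in hPFE.

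**Figure D2:**
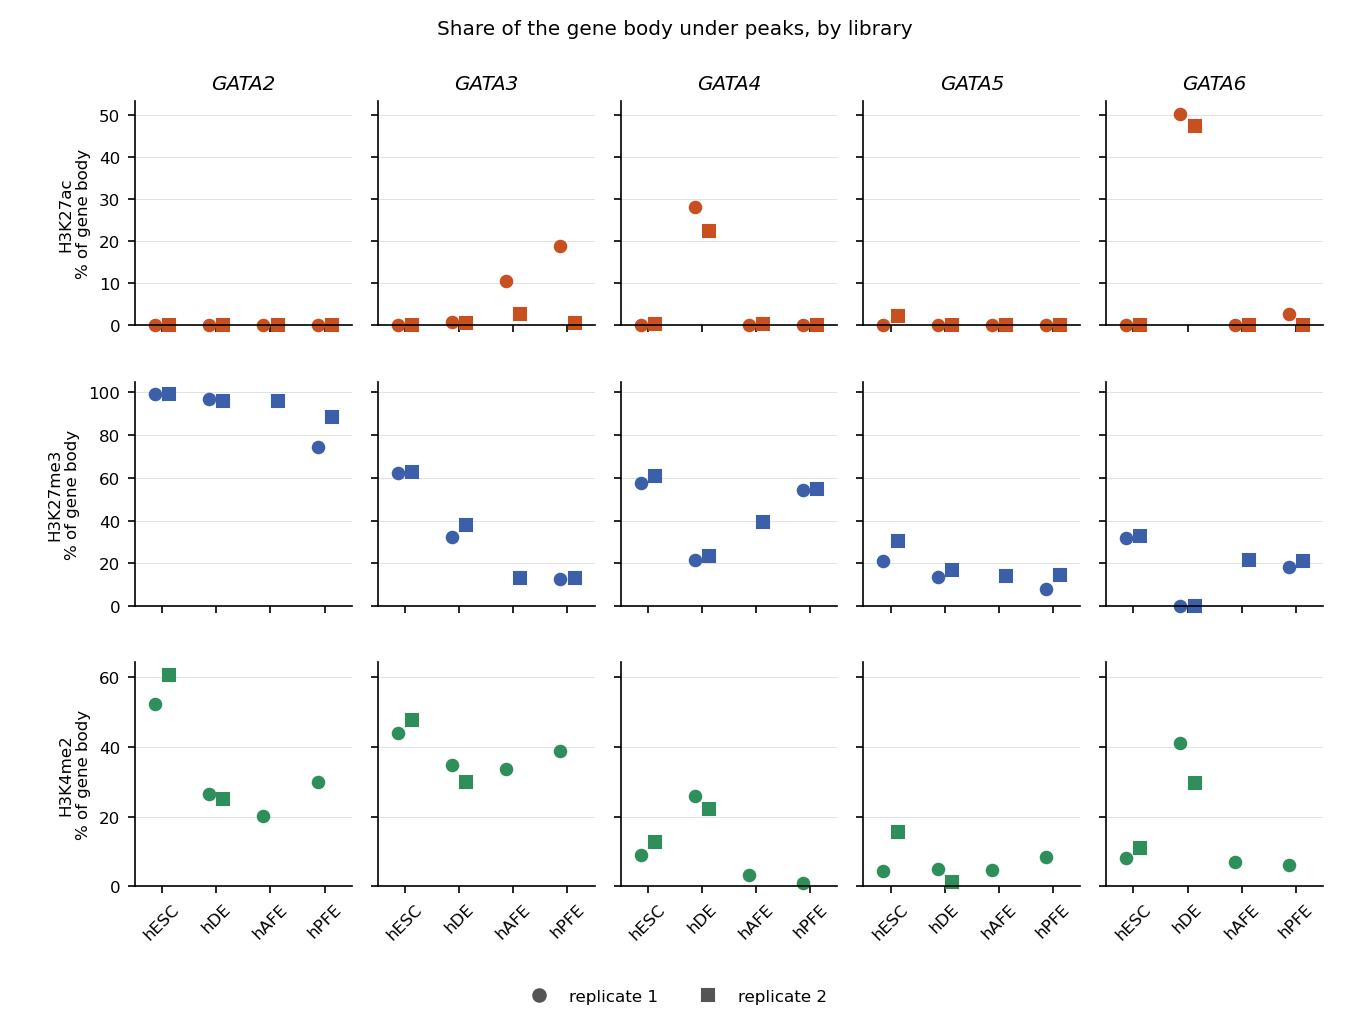
Share of each gene body under peaks (vertical axis, percent) by stage for H3K27ac (top), H3K27me3 (middle) and H3K4me2 (bottom), with circles for replicate 1 and squares for replicate 2. GATA6 stands at 50.4 and 47.4% for H3K27ac and 0 and 0% for H3K27me3 in hDE, GATA2 is at 74.6% or more for H3K27me3 in every library, and GATA3 drops to 12.8 to 13.2% in hAFE and hPFE.

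All 5 genes had less of their body under H3K27me3 in both hDE libraries than in both hESC libraries, which held for 25.7% of 9924 genes, and the same was true of all 5 in hPFE against hESC (22.2% of 11181 genes). Neither comparison had a member with more, beside 8.31 and 22.7% of genes. These shares are not scaled to the length of the lists. Per Mb of peaks in the list, H3K27me3 over GATA2 and its 100 kb flanks was higher in hDE (1787 and 1686 bp) than in hESC (1395 and 1132 bp). These scaled values overlapped between hESC and hDE at GATA3 and GATA5, and were lower in both hDE libraries only at GATA4 and GATA6. The single hAFE library had more than both hDE libraries at GATA4 and GATA6 (22.5% of genes) and less at GATA2 and GATA3 (26.9%). In hPFE against the single hAFE library, GATA4 had more (39.8% of genes) and GATA2 and GATA6 less (17.5%). H3K27ac over the body was higher in both hDE libraries than in both hESC libraries for GATA3, GATA4 and GATA6, but this was so for 54.0% of all genes, and at GATA3 the hDE values were 0.787 and 0.486% against 0 and 0% in hESC. H3K27ac was lower in both hAFE libraries than in both hDE libraries at GATA4 and GATA6, as at 66.1% of all genes, and higher at GATA3, as at 3.18%. No member was higher in both hPFE libraries than in both hAFE libraries (48.3% of genes) or lower (2.39%), and GATA3 alone was higher in hPFE than in hESC (37.2%). No member was lower in hDE than in hESC (10.9%) or in hPFE than in hESC (13.3%).

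Around GATA6, H3K27ac formed 21 separate regions away from the gene ends that had a peak in both hDE libraries and in no library of another stage, 8 in the body and 13 in the flanks. The hDE lists of H3K27ac cover the most bases, 44.0 and 46.0 Mb, against 9.60 to 31.9 Mb at the other stages. The share of such regions over all loci was not counted. Counts of them, here and at GATA4 and GATA2, are thus not shown to be particular to these genes. Distances of regions run from the lower-coordinate end of a gene to the lower edge of the region, negative toward lower coordinates. The region chr18:22162468-22165624, at -7.12 kb, had peaks of 10.9-fold or more in both hDE libraries. Farther out lay 22108361-22111062 at -61.2 kb (4.31- and 7.12-fold) and 22084122-22085993 at -85.5 kb (5.75- and 5.87-fold). The region 22078652-22082855, at -90.9 kb, was the only one of the 67 H3K27ac regions here with peaks in both libraries of hDE and of hPFE, at 8.15- and 14.4-fold in hDE and 3.10- and 2.88-fold in hPFE. Neither hAFE library had an H3K27ac peak anywhere in the GATA6 body or its 100 kb flanks; these are the 2 shortest H3K27ac lists.

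**Figure D3:**
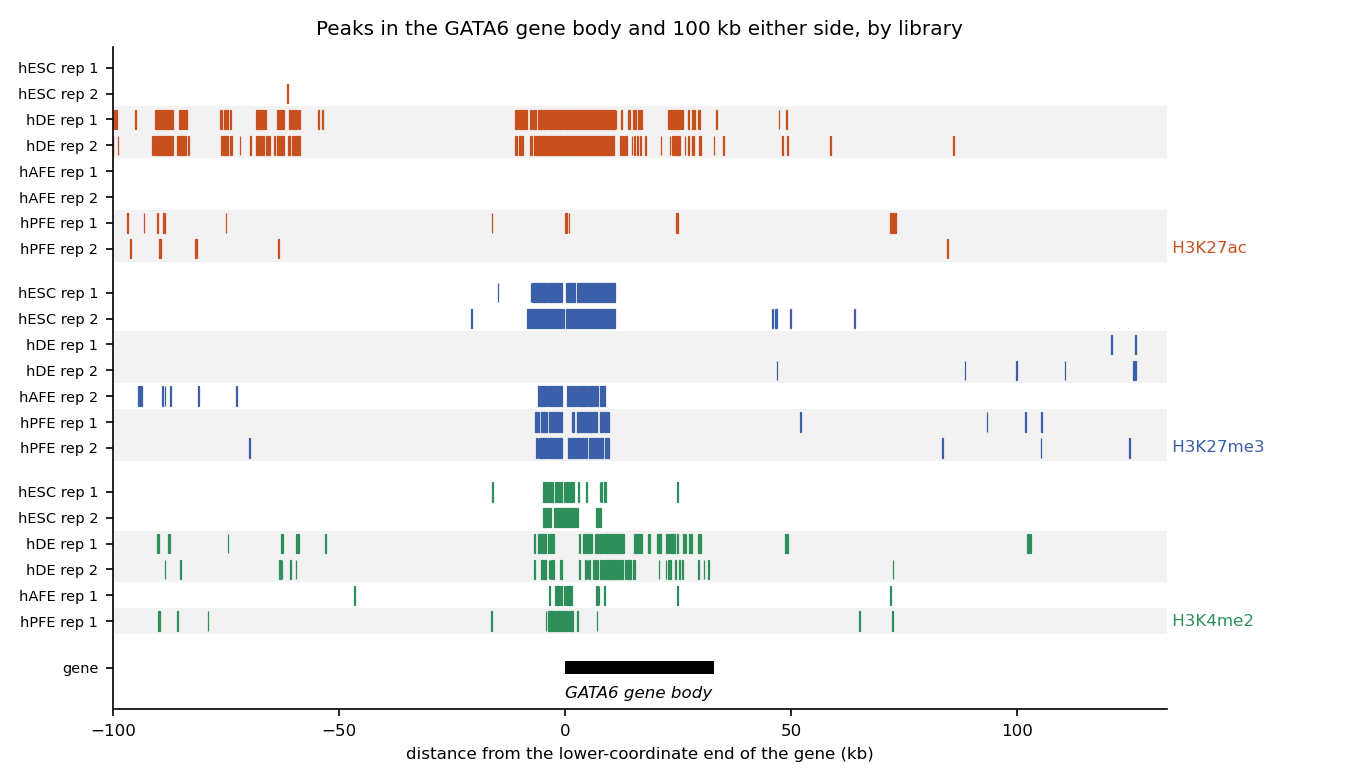
Peaks of every library over the GATA6 body (black bar) and 100 kb on either side. The horizontal axis is the distance in kb from the lower-coordinate end, which is the start of this gene, and each row is a library, grouped by mark (H3K27ac at the top, H3K27me3 in the middle, H3K4me2 at the bottom) and then by stage, with a thin outline so that narrow peaks are visible. The hDE H3K27ac rows fill the part of the gene that the widest H3K27me3 peaks of the hESC rows fill, and the 2 hAFE H3K27ac rows are empty.

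The GATA4 locus held 20 H3K27ac regions with peaks in both hDE libraries alone, 12 in the body and 8 in the flank. In the body, chr8:11706475-11711557 had peaks of 15.8- and 17.7-fold in hDE, 29.5 kb inside the gene. Those in the flank included 11612959-11617789 (12.9- and 14.7-fold) and 11630926-11634153 (11.3- and 14.8-fold), the second overlapping the lower end of the long noncoding RNA gene LOC105379242. Not every H3K27ac region near GATA4 was particular to hDE: 11801499-11802424 had a peak in all 8 libraries, from 3.02-fold in hDE replicate 1 to 11.7-fold in hPFE replicate 1, and lies within FDFT1, which encodes squalene synthase. The region 11639982-11642665 had peaks of 3.23-fold in hESC replicate 1 alone, 9.90- and 12.1-fold in hDE, 4.24- and 3.67-fold in hAFE, and 3.17- and 3.14-fold in hPFE.

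**Figure D4:**
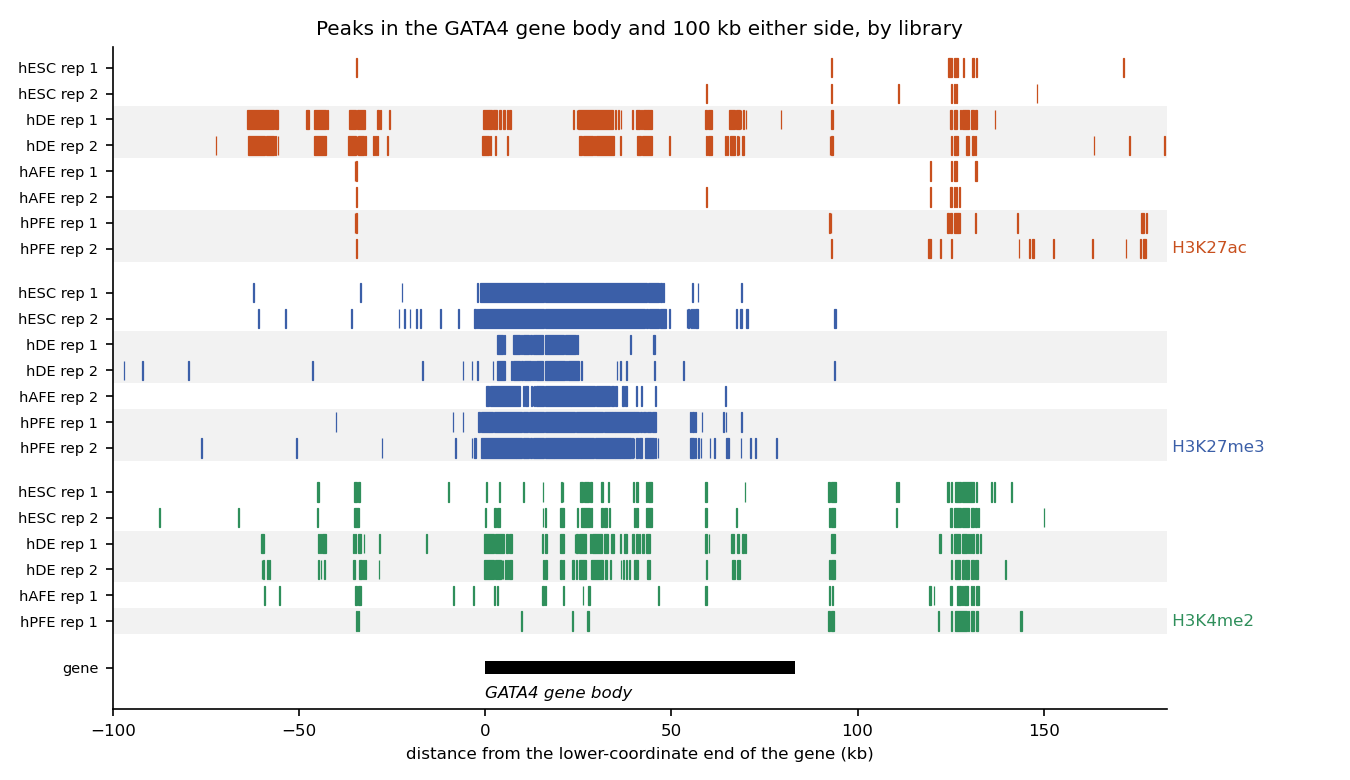
Peaks of every library over the GATA4 body (black bar) and 100 kb on either side, with the distance from the lower-coordinate end in kb on the horizontal axis and a row for each library, grouped by mark (H3K27ac at the top, H3K27me3 in the middle, H3K4me2 at the bottom) and stage. In hDE most H3K27me3 lies in a stretch between the broad H3K27ac blocks, and in hESC and hPFE it spans most of the first part of the gene.

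Summed over each gene and its flanks and scaled to the total length of peaks in the list, GATA6 had 902 and 855 bp of H3K27ac per Mb of peaks in hDE, against 0 and 8.55 in hESC, and then 0 and 0 in hAFE and 112 and 44.6 in hPFE. Its H3K27me3 ran the other way, with 874 and 618 bp per Mb in hESC, 24.7 and 45.9 in hDE, 874 in hAFE and 484 and 578 in hPFE. GATA4 had 1056 and 859 bp of H3K27ac per Mb in hDE, against 155 and 100.4 in hESC, 134 and 236 in hAFE and 181 and 131 in hPFE. In both genes the hDE values of H3K27ac stood above, and those of H3K27me3 below, every other library. The share of all genes with this pattern was not counted, so it is not shown to be particular to these genes.

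An exact permutation test of these values over all groupings of the libraries by stage gave p = 0.0286 for H3K27ac and 0.0381 for H3K27me3 at GATA6 (adjusted p = 0.118 and 0.227 by Benjamini-Hochberg over all genes). At GATA4 the exact permutation p was 0.0857 for H3K27ac, 0.162 for H3K27me3 and 0.0667 for H3K4me2. GATA2 gave p = 0.0381 for both lysine 27 marks in the same exact test, and GATA3 and GATA5 gave 0.133 to 0.476 for these marks. No gene of the annotation passed an adjusted p of 0.05 for any mark in this exact test, and the unadjusted p was 0.05 or less for 32.7% of 19662 genes with H3K27ac, 19.8% of 19401 with H3K27me3 and 11.8% of 19793 with H3K4me2. The smallest p that the design allows is 0.00952 for the first 2 marks and 0.0222 for H3K4me2, and the values of GATA2 to GATA6 are not set apart from the rest by this test.

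At GATA3 the marks changed inside the gene and not at its ends. H3K27me3 covered 62.4 and 62.9% of its body in hESC, 32.5 and 37.7% in hDE, 13.1% in hAFE and 12.8 and 13.2% in hPFE. What remained in hAFE and hPFE lay mainly around the annotated start at chr10:8045333, in peaks such as 8040255-8047980 in hAFE (14.1-fold) and 8040632-8048673 in hPFE replicate 2 (10.7-fold). A second H3K27me3 block, in the region 8054761-8065237 that begins 9.43 kb inside the gene, had peaks of 12.8- and 20.0-fold in hESC and 5.85- and 8.22-fold in hDE, and none in the hAFE or hPFE libraries.

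H3K27ac appeared in GATA3 where that second block had been. In hAFE the region 8054838-8056593 had peaks of 5.51- and 3.52-fold, and in hPFE replicate 1 had a 6.15-fold peak there and replicate 2 none. A second region, 8049638-8050752, which overlaps the antisense gene GATA3-AS1, had a 2.89-fold peak in hDE replicate 2, 4.99- and 4.05-fold peaks in hAFE and a 7.48-fold peak in hPFE replicate 1. H3K27ac covered 10.7 and 2.80% of the GATA3 body in hAFE, against 0.787 and 0.486% in hDE. In hPFE it covered 18.9% in replicate 1 and 0.469% in replicate 2, although the list of replicate 2 is the longer of the 2 (111237 peaks, against 81105 in replicate 1). Of the 6 annotated start windows of GATA3, 4 internal ones had 20 to 216 of 250 bases under H3K27ac in hPFE replicate 1, and the outermost had 0 in every library.

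H3K4me2 lay over GATA3 throughout. The region 8054563-8059699 had a peak in each of the 6 libraries, 7.52- and 9.27-fold in hESC, 5.85- and 6.63-fold in hDE, 5.52-fold in hAFE and 7.12-fold in hPFE. H3K4me2 covered 30.0 to 47.7% of the gene body over the 6 libraries. At the gene ends GATA3 kept H3K27me3 and H3K4me2 at every stage, so calls at the ends alone do not show the change inside the gene. The only H3K27ac at its ends was at the upper-coordinate end, 4.39-fold in hAFE replicate 1 and 3.28-fold in hPFE replicate 1.

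**Figure D5:**
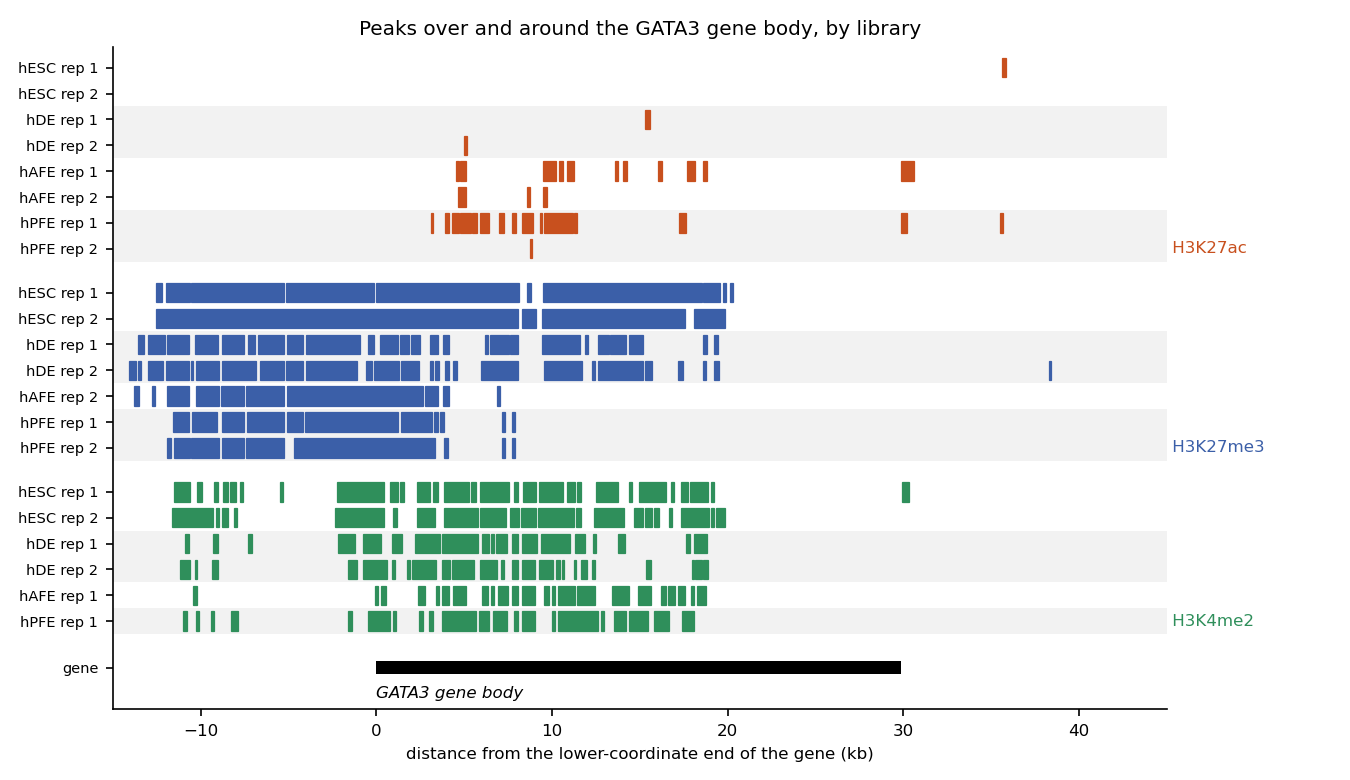
Peaks of every library over and around the GATA3 body (black bar), with the distance from the lower-coordinate end, the annotated start, in kb on the horizontal axis and a row for each library, grouped by mark (H3K27ac at the top, H3K27me3 in the middle, H3K4me2 at the bottom) and stage. H3K27me3 is present in hESC and hDE and absent in hAFE and hPFE beyond 9.43 kb, where hAFE replicates 1 and 2 and hPFE replicate 1 have H3K27ac and hDE replicate 1 has a single narrow peak.

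GATA2 was the member most fully under H3K27me3. Peaks covered 99.1 and 99.2% of its 13780 bp in hESC, 97.1 and 96.0% in hDE, 95.9% in hAFE and 74.6 and 88.7% in hPFE. No H3K27ac peak touched its body or its ends in any of the 8 libraries. H3K4me2 persisted in the body, where chr3:128488003-128490900 had a peak in all 6 libraries, from 5.78-fold in hPFE to 10.9-fold in hESC replicate 2. GATA2-AS1, a long noncoding RNA gene, overlaps this stretch.

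The H3K27ac near GATA2 lay in its flanks. The region chr3:128435335-128436542, at -44.1 kb, was the only one of 16 with peaks in every library of both foregut stages, 4.49- and 3.38-fold in hAFE and 5.88- and 5.62-fold in hPFE, and it had none in hESC or hDE. A neighbouring H3K27me3 region, 128430590-128432812, had 5.42- and 7.71-fold peaks in hESC, 5.04- and 6.85-fold peaks in hDE and none in hAFE or hPFE. The long noncoding RNA gene LOC124909428 (128432406-128434983) overlaps its upper edge. A total of 4 H3K27ac regions had peaks in both hDE libraries and at no other stage, among them 128399690-128400393 at -79.7 kb (5.51- and 5.61-fold).

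GATA5 kept H3K27me3 at its upper-coordinate end in all 7 libraries, at 15.1- and 17.5-fold in hESC, 8.05- and 11.7-fold in hDE, 9.12-fold in hAFE and 7.17- and 8.07-fold in hPFE. The mark covered 8.06 to 30.4% of its 12499 bp body over these libraries. No H3K27ac peak lay at its ends, and the body held 1 such peak, of 2.98-fold, in hESC replicate 2. Unlike GATA4 and GATA6, GATA5 was not called for any mark in any of the 4 comparisons with all peaks used. At a −log10 p threshold of 5 it was called lost for H3K4me2 in hPFE against hESC, and at a −log10 q threshold of 2 it was called lost in hAFE against hDE and gained in hPFE against hAFE.

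In the GATA5 flanks, RPS21, a ribosomal protein gene, and LAMA5, a laminin chain gene, had an H3K27ac peak at a gene end in all 8 libraries. The region chr20:62486886-62487611, at 23.4 kb, had peaks in both hDE libraries and at no other stage. The region chr20:62426927-62427548, at the end of RBBP8NL and at -36.6 kb from GATA5, had peaks of 3.96- and 4.57-fold in hESC, none in hDE, 14.1- and 5.34-fold in hAFE, and 9.29- and 5.15-fold in hPFE. H3K4me2 at the same place (62426908-62427641) was likewise absent from both hDE libraries and present in the other 4.

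In hESC all 5 loci had H3K27me3 and H3K4me2 on the same bases, counted in the body and 100 kb flanks where any library of each mark had a peak. The overlap was 15.1 kb at GATA2, 21.7 kb at GATA3, 12.2 kb at GATA4, 6.51 kb at GATA5 and 8.56 kb at GATA6. Only part of it was under both marks in every hESC library, from 2.64 kb at GATA5 to 14.1 kb at GATA3. In hDE this overlap was 0 kb at GATA6 and 6.33 kb at GATA4, of which 2.93 kb lay under both marks in every library. In hPFE it was 3.96 kb at GATA6 (2.98 kb in every library) and 0.830 kb at GATA4. At GATA2, GATA3 and GATA5 it was 6.20, 10.7 and 2.54 kb in hDE, and 4.545, 3.65 and 1.84 kb in hPFE. H3K4me2 has 2 libraries in hDE and 1 in hPFE, so any-library values are not on the same footing between these stages. The share of other loci with such overlap was not counted. H3K27me3 and H3K27ac shared no base at any of the 5 loci in hESC or hAFE.

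Over the 21 libraries, the presence of a peak at the gene ends of GATA4 differed from that of SOX17, an endoderm transcription factor gene, in 1 library. SLC34A2, which encodes a phosphate transporter, and AEN also differed from GATA4 in 1 library, and 5 genes in all did so or better. For GATA6 the nearest gene was AMIGO2, which differed in 1 library. CADPS2, OSBPL3 and ABCC3 were among 6 genes with the same presence as GATA3 in all 21 libraries. GATA2 and GATA5 had the same presence as each other, in all 13 libraries of H3K27me3 and H3K4me2 and none of H3K27ac, a pattern they shared with a total of 801 other genes for each, HOXA7 and HOXB5 among those nearest to GATA2.

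Among 28 cofactors and partner factors of the GATA proteins, 7 of the 21 that could gain H3K27ac in hDE against hESC did so, beside 16.1% of all genes. FOXA1 and FOXA2 (pioneer factors of the endoderm), SOX17, EOMES and HHEX were among them. In hAFE against hDE, 5 of 9 lost it, beside 16.9%, and FOXA3, SOX17, EOMES and HHEX were among these. SOX17, EOMES and HHEX had all 4 calls of GATA4 and GATA6. Only these 3 of 18 lost H3K27me3 in hDE (26.0% of all genes), and only these 3 of 10 gained it in hAFE (2.74%). GSC, an hDE marker outside the partner list, had all 4 calls too. The share of all genes with all 4 calls was not counted. At EOMES the H3K27ac peaks were 19.0- and 21.3-fold in hDE, with none in the other 6 libraries. The cofactor genes themselves differed: LDB1, an adaptor that joins GATA complexes, carried H3K27ac at every stage, and ZFPM2, whose protein binds GATA4, was marked in hPFE alone, with a peak in 1 library each of hDE and hAFE.

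The 6 other genes with a GATA-type zinc finger had none of the H3K27me3 calls. None of them could lose the mark in any comparison. All 6 could gain it, which 0.911 to 2.74% of the genes that could did. GATAD1, GATAD2A and GATAD2B, which encode chromatin complex subunits, carried H3K27ac at all 4 stages, as 34.2 to 54.0% of all genes did at each. None of the 6 had an H3K27me3 peak at a gene end in any library, where 12.7 to 19.2% of all genes were marked. TRPS1, a repressor, was the only one of the 6 with a call: it gained H3K27ac in hDE against hESC (1 of 3 that could, beside 16.1% of all genes) and in hPFE against hESC (1 of 2, beside 13.1%). Its H3K27ac peaks were 5.06- and 5.88-fold in hDE and 5.09- and 3.71-fold in hPFE, with 3.27-fold in hAFE replicate 1 and none in replicate 2.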

How the data were processed

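Peak lists of 21 ChIP-seq libraries were used, and the 4 inputs served as the authors' controls. The deposited file names pair each library with an input of its stage and carry "nodup" and a p of 0.01. Coordinates are on hg38 (submitters' processing notes). Which aligner and which peak caller were used is not given in these sources. Each peak's deposited fold enrichment, a ratio, and its −log10 p-value and −log10 q-value are the authors' own. Lists held 23352 to 116168 peaks over 9.60 to 51.0 Mb. Read counts were not used, so the depth is unknown and a missing peak does not show a missing mark.

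Chromosomes 1 to 22, X and Y were kept. Peaks sharing at least 1 bp within a library were to be merged, and none did. Genes are RefSeq (GRCh38.p14). The gene table gives no strand, and strand comes from the RefSeq start windows, which matched GATA2, GATA3 and GATA6. Calls used windows of 1 kb at both annotated ends, and regions away from the ends were pooled over the libraries of a mark. Coverage (bp of peak in the body and 100 kb either side per Mb of peaks) was tested in all protein-coding genes with any peak by exact permutation of libraries over the 4 stages, with Benjamini-Hochberg adjustment, after a test on simulated data. The test measures only the spread between these samples, which may be technical. The genes named are the 5 members, the fixed lists, neighbours within 100 kb and the nearest genes by presence at the ends. The members and lists were chosen with earlier results of these data known. Some genes of the partner list are counted but not reported singly here. Alternatives were another p or q threshold, equal list lengths, windows of 2.5 kb, an overlap of 200 bp, flanks of 10 kb, unscaled coverage, each library left out and a replicate block. The word millipore, whose meaning is not given, names the files of 3 libraries of H3K27me3 (in hESC, hDE and hPFE, replicate 1), and an alternative without them was chosen after seeing the data. Python 3.11.15, numpy 2.4.6 and pandas 2.3.3 were used, with matplotlib 3.10.9 for the figures.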

Additional observations from a re-analysis of the deposited data

How the results depend on the processing

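The H3K27ac calls of GATA4 and GATA6 in hDE against hESC and in hAFE against hDE, and the H3K27me3 calls of GATA6 there, were made under all alternatives run (thresholds, equal list lengths, window, overlap, each library left out where 1 remained). With 2.5 kb windows 1 gene (GATA6) lost H3K27me3 in hDE against hESC, 1 (GATA6) gained it in hAFE against hDE, 0 lost H3K4me2 in hAFE against hDE and 1 (GATA4) lost it in hPFE against hAFE. At −log10 p of 5 or more, 1 gene (GATA4) gained H3K4me2 in hDE against hESC, 2 (GATA2, GATA4) lost it in hAFE against hDE, 1 (GATA2) gained it in hPFE against hAFE, and the gene that lost it in hPFE against hESC was GATA5 in place of GATA4. At −log10 q of 2 or more, 3 (GATA2, GATA4, GATA5) lost H3K4me2 in hAFE against hDE and 2 (GATA2, GATA5) gained it in hPFE against hAFE. With an overlap of 200 bp 0 genes lost H3K4me2 in hPFE against hESC. The cause of each was not tested.

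Leaving out 1 library moved 5 counts: H3K27ac gains ranged from 0 to 1 in hAFE against hDE (GATA3, without hAFE replicate 2), 0 to 1 in hPFE against hAFE and 0 to 2 in hPFE against hESC (GATA6, and GATA3 and GATA6, without hPFE replicate 2). H3K4me2 losses in hDE against hESC and gains in hAFE against hDE ranged from 0 to 1 each (GATA6, without hDE replicate 2). Without the 3 libraries named millipore every H3K27me3 count was as before. The coverage test called 0 genes under each alternative run. With so few libraries, a gene can pass the adjustment only if a large share of all genes reach the smallest possible p. These counts of 0 therefore say little about how the result depends on the processing. GATA2 had no H3K27ac peak within 10 kb and gave no value there.

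The replicate numbers were not taken to pair the samples, since the deviations did not go together in every pair of stages. Deviations of same-numbered libraries correlated at −0.266 to 0.155 for H3K27ac, and at 0.831, −0.223 and −0.188 for H3K27me3, and at 0.387 for the 1 pair of H3K4me2. Between hESC and hDE they were positive for all 3 marks (0.155, 0.831 and 0.387), and the H3K27me3 replicate 1 files of both stages are named millipore. With a replicate block the coverage test also called 0 genes. The smallest p possible in this exact test was 0.0417 for H3K27ac and H3K27me3 and 0.0833 for H3K4me2. No call was thus possible for H3K4me2, and for the other marks a call needed most genes to reach the smallest p. The block therefore gives no information on how firm the result is.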
